A study of Mus musculus with 2 samples.

Results

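The cells described here had the transcript profile of migratory mature dendritic cells, and they were found among CD45+ leukocytes of the mouse lung by the unique molecular identifiers (UMIs) of a few genes. A cell was kept when it held 2 or more UMIs of Fscn1, 1 or more of Ccr7, 8 or more of the 5 genes Fscn1, Cacnb3, Il4i1, Socs2 and Ccr7 together, and at most 1 UMI of Cd3e, Cd3d and Cd3g. This gave 88 cells out of 8776 barcodes in 2 libraries, or out of the 8451 barcodes that showed at least 200 genes and no more than 15% mitochondrial UMIs. The library of bleomycin-treated lungs (BLM) held 73 of them among 4526 such cells, and the naive library held 15 among 3925.

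Both libraries were made from living CD45+ cells sorted from the lungs of wild-type C57BL/6N mice, and single cells were captured and tagged on the BD Rhapsody system. The BLM lungs were taken on day 15 after bleomycin given into the trachea, an agent used to cause lung injury with later fibrosis, and the naive lungs came from mice with no treatment. Each library pooled 3 mice at equal cell numbers, no cell can be traced to its mouse here, and there was 1 library per group. Differences between BLM and naive cells therefore cannot be told apart from differences between libraries, no test between groups was possible, and every interval below covers counting error only.

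Dendritic cells take up antigen in tissues and present its fragments to T cells on MHC molecules. When they mature they switch from uptake to presentation, and the chemokine receptor Ccr7 guides them through lymphatic vessels to the draining lymph node. The actin-bundling protein fascin, encoded by Fscn1, is made by mature dendritic cells and shapes their long processes. Mature cells can come from both conventional lineages, cDC1, which is known for presenting antigen of dead cells to CD8 T cells, and cDC2, which is known for activating CD4 T cells. Such mature cells are known both for costimulation of T cells and for molecules that hold T cells in check.

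The members were compared with conventional dendritic cells of the same library that did not meet the gate of the members. cDC1-like cells (54 BLM, 79 naive) were taken by Xcr1, Clec9a and partner genes and cDC2-like cells (39 BLM, 83 naive) by Cd209a, Clec10a and Mgl2, both with 30 or more UMIs of MHC class II genes and few UMIs of T cell, B cell and C1q genes. A level is the UMI sum of a gene in a class, expressed in CPM, counts per 1000000 UMIs of that class. Differences are log2 ratios of CPM with their 95% interval in square brackets, so that a log2 ratio of 1 is a fold of 2. Because the gate was set on these same cells, all differences from cDC-like cells describe the cells it picked, without a test.

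The members were deep cells, with a median of 6163 UMIs in BLM (844 to 21690) and 7145 in naive (3292 to 10938), close to the cDC2-like cells (6436 and 6147). The median over all cells that passed was 2437 UMIs in BLM and 2759 in naive. The libraries shared 22 cell indices, which included 2 naive and 0 BLM members. Transcripts of other cell types were sought with 6 marker lists (B cell, neutrophil, NK cell, C1q macrophage, alveolar macrophage and stromal). Of the members, 40 in BLM and 3 in naive held fewer than 3 UMIs of each list, whereas 5 BLM members carried 50 or more UMIs of 1 list. These 5 held 827 UMIs of the alveolar macrophage list, 748 of the stromal list, 87 and 51 of the neutrophil list and 62 of the C1q macrophage list. The cell with the stromal transcripts had no UMI of Ptprc, which encodes CD45, and held 224 of the 233 collagen UMIs and 411 of the 420 Mgp UMIs of all BLM members. Another BLM member held 51 UMIs of the ILC2 list, of which Gata3, Il1rl1 and Il13 had no UMI in any BLM member. Counts and named values that moved most without the 5 cells are given both ways. Among markers of other lineages, Lat, Cd79b, Pax5, Ncr1, Prf1, Siglecf, Krt79 and Siglech had no UMI in any BLM member, whereas 20 BLM members held 3 or more UMIs of the alveolar macrophage list, 14 of the C1q list and 11 of the neutrophil list. In the 15 naive members, 10 held 3 or more UMIs of the alveolar macrophage list and 9 of the B cell list. The part of these transcripts in the levels below was not tested beyond leaving cells out.

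The members were chosen by the UMIs of the gate genes, whose levels are given as a description. In BLM members Fscn1 summed to 2167 UMIs (4317 CPM) and Ccr7 to 1727 UMIs (3440.4 CPM), both in all 73 cells, against 0 and 1 UMIs of Fscn1 in cDC2-like and cDC1-like cells. The calcium channel subunit Cacnb3 was seen in 67 BLM members (889 CPM), Socs2, an inhibitor of cytokine signalling, in 66 (476 CPM), and the amino acid oxidase Il4i1 in 44 (321 CPM). The BLM cDC-like cells were not free of gate genes. A Ccr7 UMI was found in 17 of 39 cDC2-like cells (up to 13 per cell) and 8 of 54 cDC1-like cells (up to 22). Il4i1 was found in 10 cDC2-like cells and 1 cDC1-like cell. Of the 39 cDC2-like cells, 26 held 3 or fewer UMIs of the 5 genes, as did 52 of the 54 cDC1-like cells. In naive members the same 5 genes reached 3400.3, 3333, 688, 325 and 363 CPM. The sum over the 5 genes ran from 8 to 216 UMIs per BLM member (median 58), with 12 of the members at 20 or less, and from 9 to 142 per naive member (median 62). Just outside the gate lay 16 BLM and 19 naive cells with 2 or more Fscn1 UMIs. Of these, 5 BLM and 9 naive cells had sums of 4 to 7, and 5 BLM and 2 naive cells had a sum of 8 or more but no Ccr7 UMI.

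The label could be checked only on genes the gate did not use, of which Ccl22 was the only other marker. Ccl22 was found in 58 of 73 BLM members and 12 of 15 naive members. It was not confined to them. A Ccl22 UMI was present in 13 of 39 BLM cDC2-like and 12 of 54 BLM cDC1-like cells. In the naive library it was present in 45 of 83 cDC2-like and 41 of 79 cDC1-like cells. Zbtb46, a transcription factor of conventional dendritic cells and their precursors, was found in 45 BLM members (173 CPM, log2 ratio 1.29 [0.56, 2.08] to cDC2-like and 1.51 [0.9, 2.16] to cDC1-like cells). Flt3, the receptor of the growth factor on which dendritic cells depend, was found in 39 (181 CPM, 1.43 [0.69, 2.25] and −0.36 [−0.77, 0.05]). Both levels lay within or above those of the cDC-like cells, while migration itself was not measured and the cells were taken from lung, not from lymph or lymph node.

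Members made up 1.61% of BLM cells (95% Clopper-Pearson interval 1.27 to 2.02%) and 0.382% of naive cells (0.214 to 0.630%), a 4.22-fold difference (log2 ratio 2.08 [1.26, 2.99]). They carried 2.27% of all UMIs in BLM and 0.590% in naive. Among members and both cDC-like classes together, members were 44.0% of 166 BLM cells (36.3 to 51.9%) and 8.47% of 177 naive cells (4.82 to 13.6%). The cDC1-like share of all cells was 1.19% in BLM and 2.01% in naive, and the cDC2-like share 0.862% and 2.11%. The members were thus the class that was larger in the BLM library while both cDC-like classes were smaller, and since shares sum to 100% these values are not independent of each other.

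Across the transcriptome the BLM members stood apart from both cDC-like classes. Against cDC2-like cells, 808 of 4642 genes with 20 or more UMIs over both sides were 2-fold or more higher in members (17.4%) and 706 were 2-fold or more lower (15.2%). Against cDC1-like cells, 986 of 5335 genes were higher (18.5%) and 847 lower (15.9%). Without the 5 members these counts were 721 and 748, and 885 and 919. Between BLM and naive members smaller shares of genes were apart, 481 of 3955 higher in BLM (12.2%) and 391 lower (9.89%), or 409 and 393 without the 5 members. For naive members, 551 of 4232 genes were higher than in naive cDC2-like cells (13%) and 793 lower (18.7%), and 612 of 4282 were higher than in naive cDC1-like cells (14.3%) and 772 lower (18%). The median log2 ratio over all genes compared was −0.03, −0.02 and 0.01 for the BLM members and −0.13 and −0.08 for the naive members. These percentages and medians are the background for the counts of genes per list that follow. The BLM members enter 3 of these comparisons, which are therefore not independent.

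**Figure D1:**
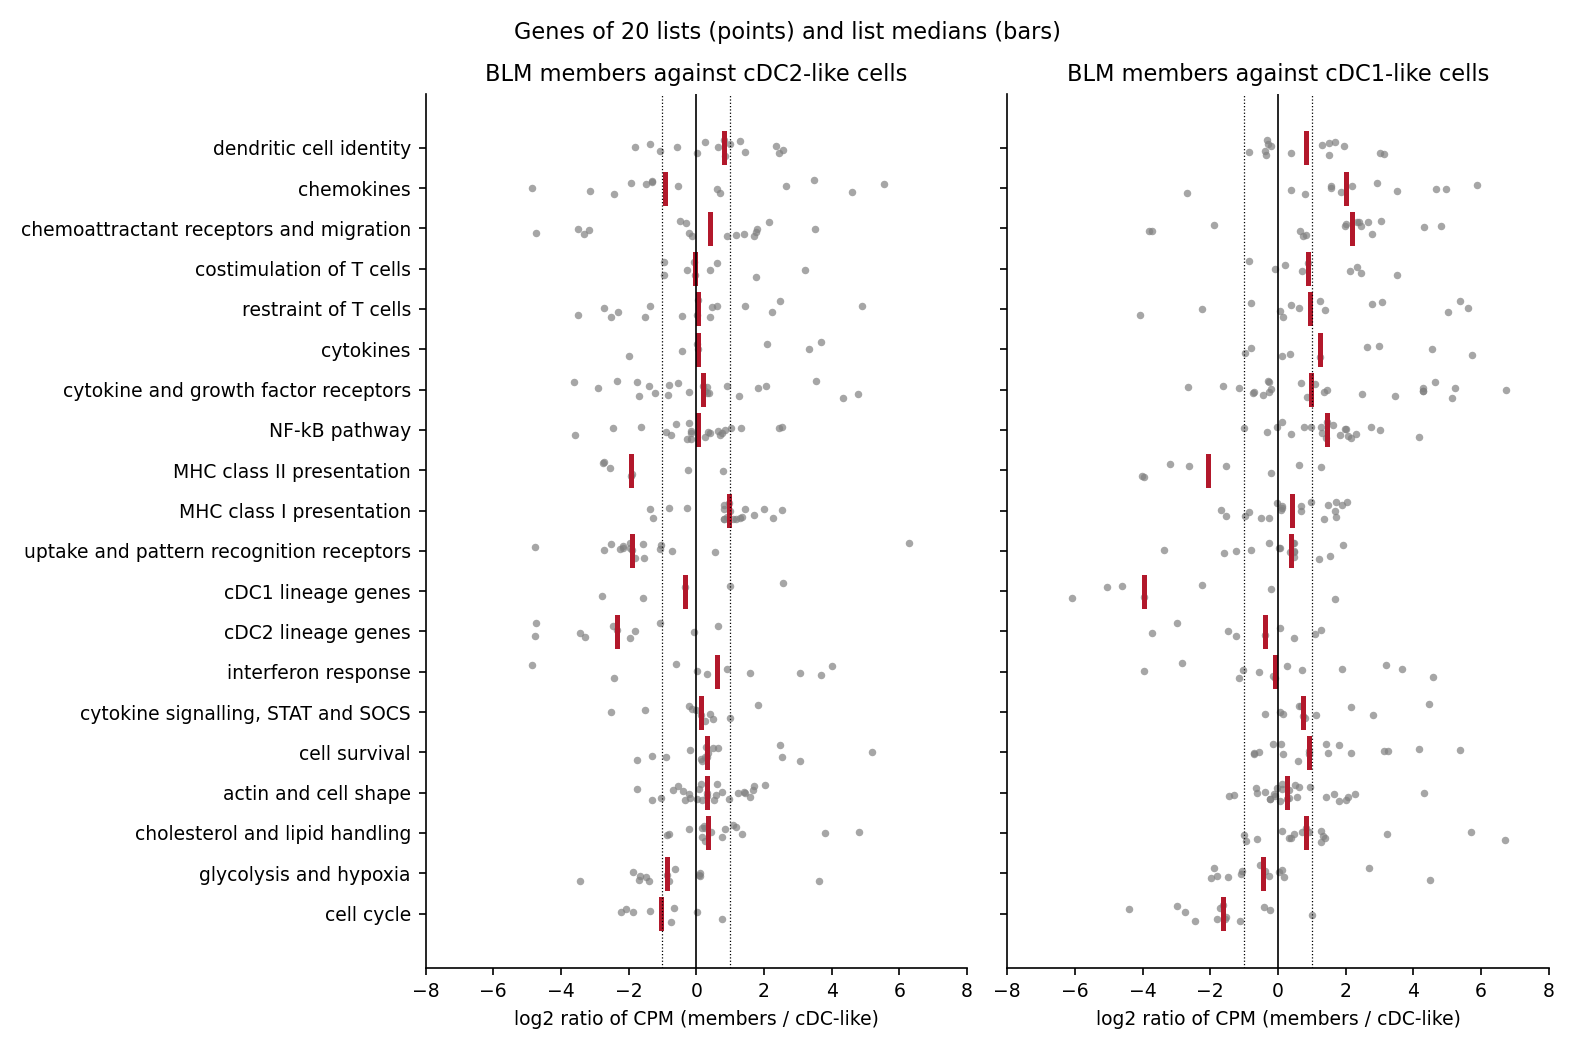
Log2 ratio of CPM of BLM members to cDC2-like cells (left) and to cDC1-like cells (right) for the genes of 20 lists, 1 point per gene, with red bars at list medians and dotted lines at a fold of 2. The medians of MHC class II presentation lie at −1.94 and −2.08, while the NF-kB pathway lies at 0.06 and 1.44.

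Chemokine transcripts were abundant in the members. Ccl22, a ligand of the receptor Ccr4 that draws regulatory and Th2 T cells, reached 5044 CPM in BLM members (95% interval 4849.6 to 5245) and 3629 CPM in naive members (3274 to 4013), a log2 ratio of 0.47 [0.32, 0.63]. In BLM cDC2-like cells it stood at 456 CPM and in BLM cDC1-like cells at 85.1 CPM, giving log2 ratios of 3.47 [3.2, 3.74] and 5.89 [5.45, 6.37]. Naive cDC1-like cells, by contrast, held 1322 CPM, so that the ratio of naive members to them was 1.46 [1.28, 1.64]. The ratio of naive members to naive cDC2-like cells was 2.79. In the naive library the members and both cDC-like classes thus held Ccl22, with a UMI in 45 of 83 cDC2-like and 41 of 79 cDC1-like cells. Ccl17, the other Ccr4 ligand, reached 3365 CPM in BLM members and 1509 CPM in naive members (1.16 [0.92, 1.4]). It was not higher in BLM members than in BLM cDC2-like cells (4920.1 CPM, log2 ratio −0.55 [−0.65, −0.44]), while BLM cDC1-like cells held less (1.85 [1.7, 2.0]). In naive members, by contrast, Ccl17 was 2-fold or more higher than in naive cDC2-like cells. It was within 2-fold of naive cDC1-like cells. Ccl22 and Ccl17 lie close together on chromosome 8 in GRCm38, Ccl22 at chr8:94745590-94751699 and Ccl17 at chr8:94810453-94812036, both on the forward strand and 58754 bases apart.

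Ccl5, which attracts T cells, monocytes and NK cells, had a lower summed level in BLM than in naive members. It was 5521 CPM in naive members and 2767 CPM in BLM members, a log2 ratio of −1.0 [−1.14, −0.85]. Of the 578 Ccl5 UMIs in naive members, 194 lay in 1 cell, so the naive level leans on few cells. In both libraries members far exceeded cDC-like cells, by 5.53 [4.83, 6.34] against cDC2-like and 4.96 [4.52, 5.42] against cDC1-like cells in BLM, and by 6.23 and 7.17 in naive. Per member, the median was lower in BLM than in naive for all 3 chemokines, at 7 against 27 UMIs for Ccl22, 2 against 5 for Ccl17 and 12 against 17 for Ccl5, although the summed CPM of Ccl22 and Ccl17 gave ratios of 0.47 and 1.16. A Ccl5 UMI was found in 63 of 73 BLM members and 11 of 15 naive members.

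Free RNA from lysed cells can place UMIs in cells that do not make a transcript, so the shares of cells were set beside those of B-like cells (610 in BLM, median 1827.5 UMIs), taken by Cd79a, Cd79b and Ms4a1. A Ccl22 UMI was found in 79.5% of BLM members and 1.8% of B-like cells. After each cell was thinned to 1000 UMIs, which left out 2 BLM members, the expected shares were 64.1% and 0.694%. The thinned shares were 68.4% and 1.57% for Ccl5, 45% and 2.4% for Ccl17 and 29.1% and 0.33% for Il12b. In naive members the thinned share for Ccl22 was 68.1%, with 1.31% in naive B-like cells (837 cells, median 2044 UMIs). In the BLM library all 4 genes lay well above the share of B-like cells.

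**Figure D2:**
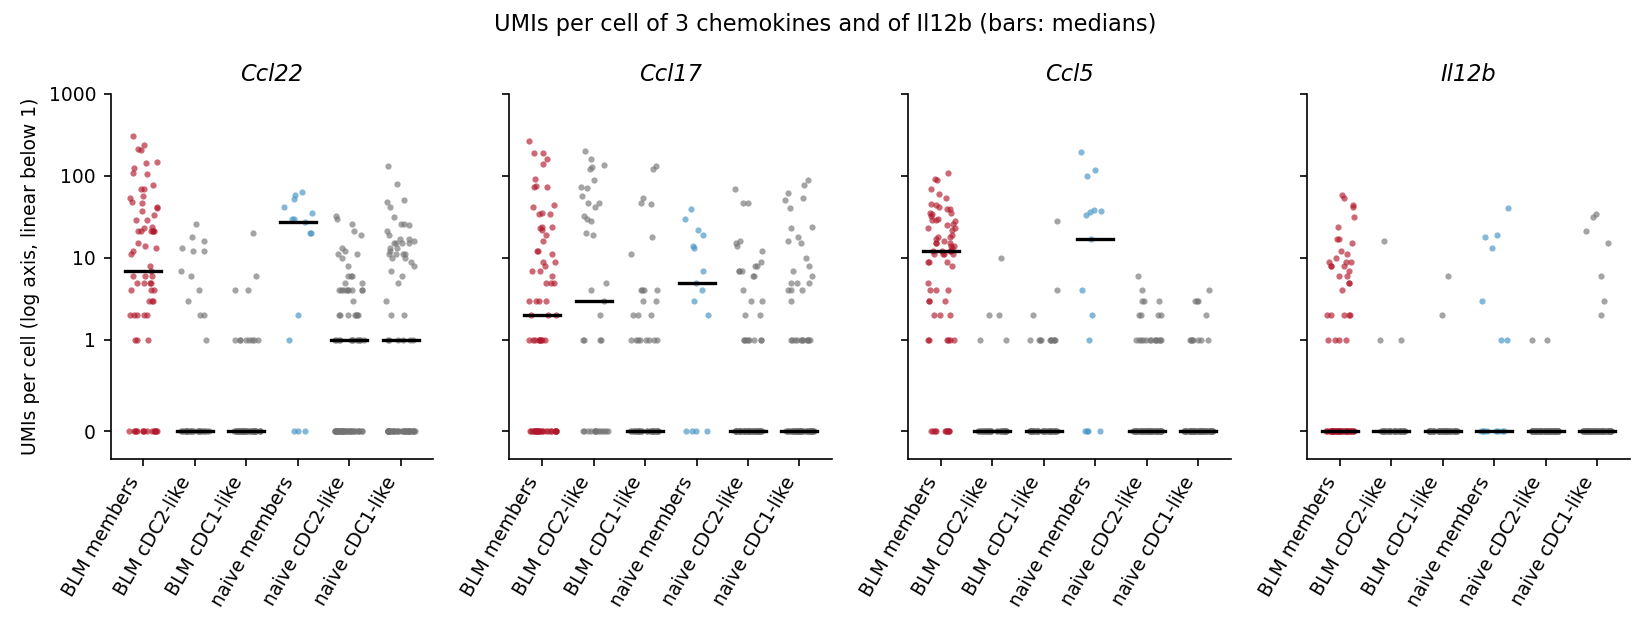
UMIs per cell of Ccl22, Ccl17, Ccl5 and Il12b in BLM members (red), naive members (blue) and cDC-like cells (grey), on a log axis that is linear below 1, with bars at medians. The medians of BLM members are 7 UMIs for Ccl22, 2 for Ccl17, 12 for Ccl5 and 0 for Il12b, and those of naive members are 27, 5, 17 and 0.

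Other chemokines went in both directions. Of 14 listed chemokines with enough UMIs, 4 were 2-fold or more higher in BLM members than in cDC2-like cells and 7 lower, and of 12 against cDC1-like cells 9 were higher and 1 lower. Without the 5 members these were 3 and 7 of 13, and 6 and 1 of 9. Those lower than in cDC2-like cells included Ccl9 (231 CPM, −1.48 [−1.83, −1.13]), Ccl6 (548 CPM, −1.31 [−1.55, −1.08]), Ccl4 (14 UMIs, −3.15 [−4.09, −2.3]) and the interferon-induced Cxcl10 (9 UMIs against 139, −4.86 [−6.02, −3.89]). Cxcl16, a membrane-bound ligand of Cxcr6, was within 2-fold of both cDC-like classes (681 CPM in 68 members, 0.69 [0.38, 1.01] and 0.38 [0.14, 0.62]). Of the 181 UMIs of Cxcl3, 153 came from 1 cell. Ccl19, a ligand of Ccr7 itself, had 1 UMI in BLM members.

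The share of a library's UMIs of a gene that lay in the members was set beside their share of all UMIs. In BLM they held 79.8% of all Ccl22 UMIs (78.4 to 81.2%), 59.5% of Il12b, 55.4% of Aldh1a2, 28.5% of Cd200, 28.4% of Tmem123, 24.5% of Ccl17 and 14% of Ccl5, beside 2.27% of all UMIs. In naive, where they held 0.590% of all UMIs, the shares were 16.8%, 34.3%, 23.3%, 10.3%, 9.18%, 9.05% and 4.6%. Leaving out every cell with 3 or more UMIs of another lineage, which kept 3 naive members, gave shares of 73.1% in BLM and 44.8% in naive for Ccl22, 81.7% and 2.86% for Il12b, 34.4% and 20.95% for Ccl17, and 34.0% and 9.28% for Ccl5.

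**Figure D3:**
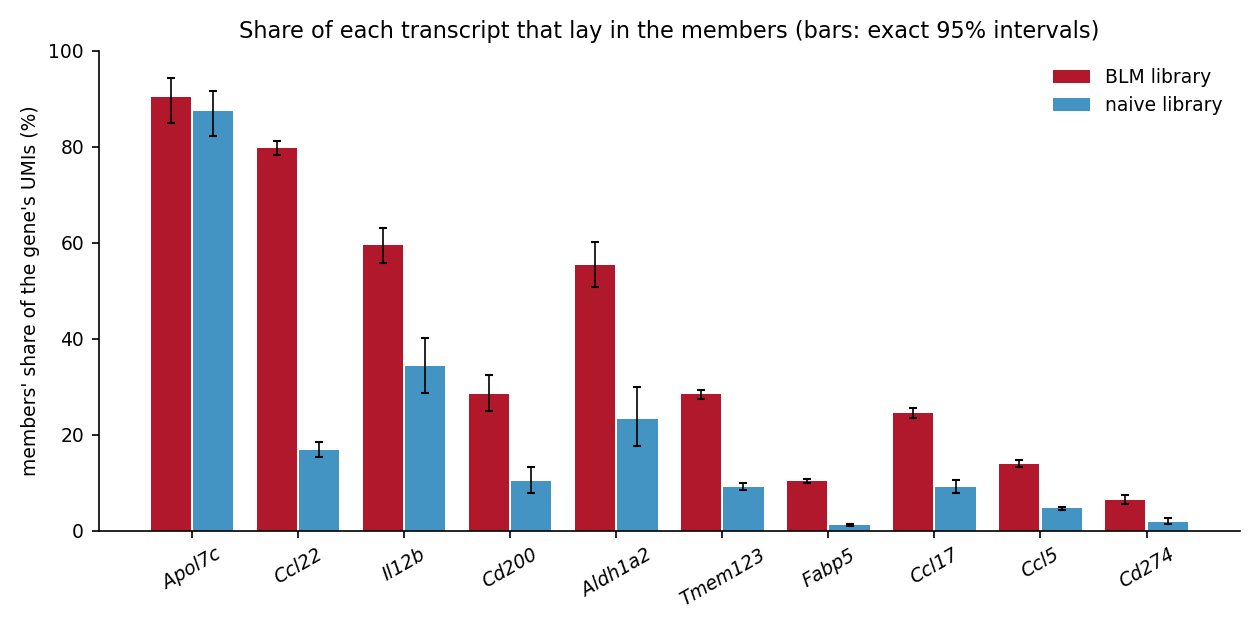
Members' share of all UMIs of 10 genes in the BLM library and the naive library, in percent, as bars with exact 95% intervals. Apol7c stands at 90.3% in BLM and 87.4% in naive, whereas Ccl22 stands at 79.8% and 16.8%.

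Among listed cytokines higher in members than in both cDC-like classes, Il12b, the p40 chain shared by interleukin 12 and interleukin 23, had the most UMIs. It reached 861 CPM in 33 of 73 BLM members and 907 CPM in 7 of 15 naive members, a ratio of −0.08 [−0.4, 0.26]. Against cDC2-like and cDC1-like cells of the BLM library it was higher by 3.68 [3.0, 4.44] and 5.73 [4.74, 6.95]. Of its partner chains, Il12a had 0 UMIs in BLM members, a count that allows up to 3, and Il23a had 19. Il15, which sustains NK and CD8 memory T cells, summed to 19 UMIs, with log2 ratios of 3.34 [0.69, 8.72] and 2.64 [0.87, 5.04]. Il1b was lower than in cDC2-like cells (1879 CPM, −1.98 [−2.1, −1.87]). Ebi3, a subunit of interleukins 27 and 35, was lower in BLM than in naive members (57.8 against 267 CPM, −2.21 [−3.01, −1.41]). In all, 3 of 7 listed cytokines were 2-fold or more higher than in cDC2-like cells and 1 lower, with 5 and 0 of 9 against cDC1-like cells. These counts include Il33, all 24 UMIs of which lay in the cell with stromal transcripts, and without the 5 members they were 2 higher and 2 lower of 6, and 3 and 2 of 6.

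The receptor Ccr2 was low in members, while several adhesion and motility genes were high. Ccr2, the receptor that brings monocytes and some cDC2 into inflamed tissue, stood at 21.9 CPM, with log2 ratios of −4.74 [−5.77, −3.86] and −3.72 [−4.76, −2.84]. Ccr1, a receptor of inflammatory chemokines, was lower than in cDC2-like cells (−3.18 [−4.05, −2.39]) and higher than in cDC1-like cells (16 UMIs, 1.98 [0.34, 4.01], and 0.17 without the 5 members). The mucosal integrin chain Itgb7 (−3.32 and −3.81) was lower in members than in both classes. Tmem123, which encodes the surface mucin porimin, was the most abundant of the higher genes (4847 CPM in 72 members, 3.51 [3.23, 3.79] and 4.81 [4.5, 5.14]). The actin-linked proteins Marcks (2249 CPM, 1.42 and 2.02) and Marcksl1 (1002 CPM, 1.71 and 4.31) and the integrin chain Itga4 (715 CPM, 1.8 and 2.76) were also higher. Cxcr5, the receptor that leads cells to B cell follicles, had 25 UMIs in BLM members and 0 in both cDC-like classes (at least 4.44-fold higher and at least 8.19-fold higher, with 3 counts set in place of the 0 of each class). Of 16 genes of this list, 7 were higher and 4 lower than in cDC2-like cells. Against cDC1-like cells 10 of 16 were higher and 3 lower. Icam1, a ligand of the T cell integrin LFA-1, was lower in BLM than in naive members (201 against 993 CPM, −2.3 [−2.71, −1.89]).

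Costimulatory genes differed little from cDC2-like cells and more from cDC1-like cells. Cd86 was within 2-fold of both cDC-like classes (430.3 CPM, 0.62 [0.23, 1.02] and −0.1 [−0.38, 0.17]), and Cd80 was higher than in cDC1-like cells only (257 CPM, −0.29 [−0.7, 0.12] and 2.13 [1.54, 2.76]). Cd40, through which helper T cells license dendritic cells, followed the same order (183 CPM, 0.4 [−0.16, 1.0] and 2.33 [1.59, 3.15]). Tnfsf4, which encodes OX40 ligand, was the strongest costimulatory difference from cDC2-like cells (35 UMIs in 11 members, 3.22 [1.26, 6.32]), and neither cDC1-like cells nor naive members held a UMI. Between the libraries 5 of 9 listed genes were 2-fold or more lower in BLM members and 1 higher (median −1.26). They included Cd83 (1510.0 against 3677 CPM, −1.28 [−1.46, −1.1]), a maturation marker that stabilises MHC class II and CD86 at the surface, as well as Cd40 (−1.26 [−1.79, −0.72]), Icosl (−1.71 [−2.39, −1.01]) and Icam1 given above. Cd80 and Cd86 were within 2-fold (−0.06 [−0.66, 0.59] and 0.54 [−0.01, 1.13]).

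Of the molecules that restrain T cells, Cd200 and Aldh1a2 were high in the members of both libraries. Cd200, the ligand of an inhibitory receptor on myeloid cells and lymphocytes, was found in 49 BLM members (331 CPM) and exceeded cDC2-like and cDC1-like cells by 4.88 [3.31, 7.17] and 5.03 [3.78, 6.67]. Aldh1a2, the enzyme that makes retinoic acid and thereby favours regulatory T cells, was found in 34 (498 CPM, 2.25 [1.68, 2.87] and 5.62 [4.38, 7.25]). In naive members the ratios to cDC2-like and cDC1-like cells were 4.4 and 3.54 for Cd200 and 3.87 and 5.36 for Aldh1a2. The PD-1 ligands differed from each other: Cd274 (PD-L1) was within 2-fold of cDC2-like cells (345 CPM, 0.62 [0.19, 1.07]) and higher than in cDC1-like cells (2.77 [2.16, 3.43]), while Pdcd1lg2 (PD-L2) was higher than in both (51 UMIs, 1.44 [0.45, 2.58] and 3.06 [1.84, 4.57]). Pdcd1lg2 had no UMI in naive members, and with those set to 3 counts BLM members were at least 3.55-fold higher. Cd200 (−0.61 [−1.07, −0.14]), Aldh1a2 (0.21 [−0.25, 0.7]) and Cd274 (0.22 [−0.34, 0.82]) were within 2-fold between the libraries. Ido1, a tryptophan-degrading enzyme of tolerogenic dendritic cells, had 0 UMIs in BLM members. Lower members of the list included Havcr2, which encodes TIM-3 (−2.32 [−3.61, −1.17] and −4.08 [−5.24, −3.12]), Socs3 (−2.52 [−3.3, −1.79]) and Lgals9 (−3.49 [−5.9, −1.72]). In counts, 4 of 16 genes were 2-fold or more higher and 6 lower than in cDC2-like cells, and 7 and 2 of 14 against cDC1-like cells. Without the 5 members these were 4 and 7 of 16, and 6 and 3 of 14. In naive 5 of 16 were higher and 3 lower than in cDC2-like cells, and 6 and 3 of 11 against cDC1-like cells.

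Receptors of cytokines, many of them made by T cells, were often higher than in cDC1-like cells, with 12 of 24 listed receptors 2-fold or more higher and 3 lower (10 and 3 of 23 without the 5 members). Against cDC2-like cells 6 of 23 were higher and 7 lower. Il15ra, which presents interleukin 15 to neighbouring cells, was high against both (51 UMIs in 28 members, 4.76 [2.22, 10.09] and 4.65 [2.72, 7.73]). So were Il2ra, or CD25 (217 CPM, 2.05 [1.24, 2.97] and 6.74 [4.24, 12.06]), and Tnfrsf4, the receptor of OX40 ligand (38 UMIs, 4.34 [1.77, 9.68] and 5.22 [2.66, 10.56]). Tnfrsf9, or 4-1BB, was higher than in cDC2-like cells (215 CPM, 3.52 [2.26, 5.18]) and absent from the UMIs of cDC1-like cells (at least 35.4-fold higher). Lower receptors were Ifngr1 (−1.75 [−2.41, −1.11] and −1.64 [−2.25, −1.06]), Il1r2, a decoy for interleukin 1 (−3.63 [−4.01, −3.26]), and Csf1r, the macrophage growth factor receptor (−2.35 [−3.03, −1.71]). Il21r was higher in BLM than in naive members (118 against 3 UMIs, 3.04 [1.45, 5.33]). The log2 ratio was 0.35 when all cells with 3 or more UMIs of another lineage were left out. That left 3 naive members, whose side was at most 3 counts, real or set as the floor. The 0.35 thus does not show that the difference became smaller.

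Genes of the NF-kB pathway, which drives dendritic cell maturation, were mostly higher than in cDC1-like cells. Of 21 genes 14 were 2-fold or more higher and 0 lower (median 1.44), and in naive 15 of 21 were higher and 0 lower (median 1.36). Against cDC2-like cells the list was near even, with 4 of 22 higher and 3 lower (median 0.06). Relb, the subunit of the noncanonical arm that mature dendritic cells need, was higher than in both (345 CPM in 61 members, 2.44 [1.72, 3.25] and 3.02 [2.36, 3.75]), as was the ubiquitin ligase Birc2 (367 CPM, 2.53 [1.81, 3.34] and 4.18 [3.27, 5.26]). The subunit Nfkb1 was within 2-fold of cDC2-like cells (−0.6 [−0.92, −0.28]), and so was the inhibitor Nfkbia (1480.2 CPM, −0.22 [−0.39, −0.05]). Between libraries 4 of 21 genes were 2-fold or more lower in BLM members and 0 higher.

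Signal transducers and interferon-induced genes showed a mixed picture. The guanylate-binding protein gene Gbp2 (73 UMIs, 3.7 [2.09, 6.01] and 4.58 [2.98, 6.89]) and the transcription factor Irf1 (179 CPM, 1.58 [0.81, 2.45] and 3.66 [2.56, 5.02]) were higher in BLM members than in cDC2-like and cDC1-like cells. The list of interferon-induced genes had 4 of 10 genes higher and 2 lower against cDC2-like cells, and 4 of 13 higher and 4 lower against cDC1-like cells. Irf1 was lower in BLM than in naive members (−1.32 [−1.85, −0.78]). Stat4, which transmits interleukin 12 signals, summed to 67 UMIs (1.83 [0.87, 2.96] to cDC2-like cells) and had no UMI in cDC1-like cells. Of 11 STAT and SOCS genes 2 were higher and 2 lower than in cDC2-like cells, with 4 and 0 of 11 against cDC1-like cells.

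Genes of presentation on MHC class II were mostly lower in members. The peptide-loading genes H2-DMa (104 CPM, −2.74 [−3.21, −2.29] and −2.62 [−3.08, −2.2]) and H2-DMb1 (69.7 CPM, −2.56 [−3.15, −2.0] and −3.19 [−3.74, −2.68]) were lower in members. Ciita, the master activator of class II transcription, was lower too (63.7 CPM, −1.91 [−2.57, −1.28] and −1.53 [−2.16, −0.94]). March1, the ubiquitin ligase that removes class II from the surface of immature cells, had 2 UMIs in BLM members (−4.02 [−7.13, −2.05] to cDC1-like cells). In all, 5 of 7 tested class II genes were 2-fold or more lower than in cDC2-like cells and 0 higher, and in naive 5 of 9 lower and 0 higher. Against cDC1-like cells 5 of 8 were lower and 1 higher in BLM (Lgmn), and 5 of 9 lower and 2 higher in naive (H2-DMb2 and Lgmn). H2-Aa, H2-Ab1, H2-Eb1 and Cd74 helped to choose the cDC-like cells and are a description only: they took a median of 1.08% of the UMIs of BLM members (0 to 6.56%), 4.38% in cDC2-like and 3.78% in cDC1-like cells. In naive members the median was 1.13% (0.136 to 5.80%).

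Several class I genes were higher. H2-K1 (2351 CPM in all 73 members, 1.28 [1.09, 1.48] and 1.35 [1.19, 1.51]) and its light chain B2m (4835 CPM, 1.44 [1.3, 1.59] and 1.49 [1.38, 1.6]) were higher in members. The proteasome activator Psme2 (1048 CPM, 2.27 [1.88, 2.69] and 1.72 [1.46, 1.99]) and the class I activator Nlrc5 (53 UMIs, 2.01 [0.87, 3.39] and 1.7 [0.87, 2.61]) were higher as well. Calr and Pdia3, chaperones of the peptide-loading complex, were lower (−1.36 [−1.61, −1.11] and −1.55 [−1.77, −1.33] for Calr, −1.27 [−1.61, −0.93] and −1.67 [−1.97, −1.39] for Pdia3). Of 20 class I genes 9 were 2-fold or more higher and 2 lower than in cDC2-like cells, which became 12 and 2 without the 5 members. Against cDC1-like cells 7 of 20 were higher and 2 lower. Between BLM and naive members 1 of 20 genes were 2-fold or more higher in BLM and 0 lower.

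Receptors for uptake and for microbial patterns were mostly lower than in cDC2-like cells, 14 of 17 in BLM with 1 higher (median −1.91), and 13 of 18 in naive with 2 higher. Against cDC1-like cells 3 of 16 were higher and 3 lower in BLM, which became 1 and 4 of 13 without the 5 members. The higher gene in BLM was Ly75, or DEC-205, an endocytic receptor of dendritic cells that increases with maturation (293 CPM in 52 members, 6.29 [3.79, 11.6] and 1.93 [1.4, 2.48]). The lipopolysaccharide co-receptor Cd14 (237 CPM, −2.16 [−2.48, −1.85]), the mannose receptor Mrc1 (−1.95 [−2.49, −1.44]), Clec12a (−2.16 [−3.56, −0.9] and −3.38 [−4.64, −2.34]) and Lyz2 (−1.55 [−1.69, −1.41]) were lower than in cDC2-like cells. Of the UMIs of Mrc1 and Lyz2 in BLM members, 51.1% and 28.2% came from 1 cell each.

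Genes that tell the conventional lineages apart were low in the members. Naaa, a cDC1-associated lysosomal enzyme, summed to 32 UMIs (−2.79 [−3.4, −2.22] and −5.04 [−5.6, −4.54]), and Ppt1 (−4.62 [−5.38, −3.94]) and Cd24a (187 CPM, −2.24 [−2.58, −1.92]) were also lower than in cDC1-like cells. On the cDC2 side Ms4a6c (−3.45 [−4.08, −2.87]), the integrin Itgam, or CD11b (6 UMIs, −4.77 [−6.25, −3.59]), Sirpa (−1.08 [−1.94, −0.23]) and Irf4 (16 UMIs, −1.82 [−2.79, −0.89]) were lower than in cDC2-like cells. Irf8, needed for cDC1 development, was in contrast within 2-fold of cDC1-like cells and higher than in cDC2-like cells (578 CPM, −0.19 [−0.43, 0.04] and 2.57 [1.99, 3.21]), and higher in BLM than in naive members (1.53 [0.89, 2.24]). Batf3, a partner factor of cDC1, was higher than in cDC1-like cells (52 UMIs, 1.68 [0.84, 2.58]), and Id2 was higher than in both (1863 CPM, 2.36 [2.06, 2.68] and 1.3 [1.13, 1.48]). Of the cDC1 list 5 of 7 tested genes were 2-fold or more lower than in cDC1-like cells and 1 higher, and of the cDC2 list 9 of 11 were lower than in cDC2-like cells and 0 higher. The general dendritic cell list had 5 of 15 higher and 3 lower against cDC2-like cells, and 7 and 0 of 14 against cDC1-like cells. Per cell, 5 BLM members held a UMI of Xcr1, Clec9a or Cadm1, another 5 of Cd209a, Clec10a or Mgl2, and 63 of none of these 6, while 0 held genes of both sets. Of the 15 naive members, 3 and 5 held the sets, 2 of them both, and 9 held none. These 6 genes helped to choose the cDC-like cells, and the counts are a description.

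Among genes of lipid handling, the abundant Fabp5 and the less abundant Apol7c went in opposite directions between the libraries. Fabp5, a carrier of fatty acids and retinoic acid, reached 3395 CPM in BLM members (68 of 73 cells, median 16 UMIs per cell) and 611 CPM in naive members (9 of 15), a log2 ratio of 2.47 [2.11, 2.86]. It also exceeded cDC2-like and cDC1-like cells by 3.8 [3.45, 4.18] and 6.71 [6.01, 7.52]. Fabp5 is an abundant transcript of alveolar macrophages as well, and without the 5 members its ratio between libraries was 2.53. With all cells of 3 or more UMIs of another lineage left out (40 BLM and 3 naive members remained) it was 1.35. Apol7c, an apolipoprotein L family gene, went the other way, with 317 CPM in 22 BLM members and 1729 CPM in 7 naive members (−2.45 [−2.76, −2.13]). Of its 181 naive UMIs 80 came from 1 cell, and the median per member was 0 in both libraries. No BLM cDC-like cell held an Apol7c UMI, which made members at least 28.2-fold higher than cDC2-like and at least 52.1-fold higher than cDC1-like cells. Of 16 lipid genes 5 were higher and 0 lower than in cDC2-like cells, which became 5 and 4 of 16 without the 5 members. Against cDC1-like cells 7 of 17 were higher and 0 lower, or 6 and 3 of 17 without the 5.

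The sequences before the start sites of 3 of these genes are shown because short motifs of transcription factors lay in them. Apol7c and Serpinb9, a protease inhibitor, are among the genes that set the members apart most from cDC-like cells, and Ccl17 is an abundant chemokine of theirs. Each sequence is the 250 bases upstream of the RefSeq start in GRCm38.p6, 5′ to 3′ on the strand of the gene, with the motif in capitals. The capitals mark the interferon-response-like motif, GAAA and GAAA with 2 bases of any kind between them, which lies on the opposite strand and so reads TTTC and TTTC here, in Apol7c (reverse strand, chr15:77533316-77533565, where a pair of matches overlap) and in Serpinb9 (forward strand, chr13:33004291-33004540), and the STAT-like letters TTCNNNGAA in Ccl17 (forward strand, chr8:94810203-94810452).
Apol7c: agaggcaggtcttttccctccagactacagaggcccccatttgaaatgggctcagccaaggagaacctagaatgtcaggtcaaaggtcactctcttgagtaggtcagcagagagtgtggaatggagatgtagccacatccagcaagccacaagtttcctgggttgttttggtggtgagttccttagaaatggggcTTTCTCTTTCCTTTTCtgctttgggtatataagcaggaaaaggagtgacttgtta
Serpinb9: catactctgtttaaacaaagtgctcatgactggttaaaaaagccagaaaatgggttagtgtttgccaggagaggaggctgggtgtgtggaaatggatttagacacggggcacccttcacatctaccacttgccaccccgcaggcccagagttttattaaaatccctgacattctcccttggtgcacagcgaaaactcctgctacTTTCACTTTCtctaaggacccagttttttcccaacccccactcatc
Ccl17: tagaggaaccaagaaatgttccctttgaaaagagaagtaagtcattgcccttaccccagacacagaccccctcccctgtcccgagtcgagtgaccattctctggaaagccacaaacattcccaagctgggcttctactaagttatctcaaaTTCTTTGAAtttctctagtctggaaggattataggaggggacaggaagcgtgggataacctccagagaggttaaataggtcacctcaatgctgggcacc

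These motifs were searched on both strands. Over all 32851 RefSeq windows of the same length, 2.98% held the interferon-response-like motif, 7.02% the STAT-like TTCNNNGAA, 6.75% the AP-1-like TGANTCA and 1.41% the kappaB-like motif, GGG and TTTCC with 2 bases of any kind between them. Of the 13 genes highest in members against either cDC-like class, 6 matched a window by symbol (8 windows), and 2 of these windows held the interferon-response-like letters and 1, that of Tmem176a, the kappaB-like letters. Of the 14 lowest genes 8 matched, with the interferon-response-like letters in 1 window, that of Cxcl10, and the AP-1-like letters in 2, those of Cxcl10 and Plet1. Of the 5 gate genes 3 matched, and their 4 windows held none of the motifs. Of Ccl5, Ccl17, Ccl22 and Il12b, 3 matched with 1 window each. Only the window of Ccl17 held a motif, and those of Ccl22 and Il12b held none. The 3 sequences shown were thus picked for their motifs. A match of letters is a description and no evidence that a factor binds there.

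Serpinb9, which protects cells from granzyme B, was found in 61 of 73 BLM members (1363 CPM), with log2 ratios of 4.92 [4.11, 5.88] and 3.69 [3.29, 4.13]. Other survival genes were less apart: of 16 genes 4 were higher and 2 lower than in cDC2-like cells, and 8 and 0 of 17 against cDC1-like cells. The pro-apoptotic Bcl2l11 was lower than in cDC2-like cells (−1.74 [−2.3, −1.19]).

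Genes of the cytoskeleton went in both directions. Of 27 genes 7 were higher and 3 lower than in cDC2-like cells, with 7 and 2 against cDC1-like cells. Basp1 (1994 CPM, 1.6 [1.37, 1.84] and 0.62 [0.47, 0.76]), the motor protein Myo1g (755 CPM, 1.23 [0.89, 1.59] and 2.07 [1.73, 2.42]) and the small GTPase Rhoc (84 UMIs, 2.02 [1.11, 3.08] and 2.28 [1.52, 3.13]) were higher than in cDC2-like cells. Coro1a (−1.04 [−1.31, −0.76] and −1.3 [−1.54, −1.07]) and the leukocyte GTPase Rac2 (−1.77 [−2.28, −1.27]) were lower.

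Part of the glycolysis genes and part of the cell cycle genes were lower in members. Against cDC2-like cells 6 of 13 glycolysis and hypoxia genes were 2-fold or more lower and 1 higher (8 and 1 without the 5 members). The lower genes included Ldha (53 UMIs, −1.39 [−1.93, −0.86]), Pkm (−1.49 [−2.02, −0.98]) and Hk2 (−3.45 [−4.52, −2.52]). The higher gene was Eno2 (23 UMIs, 3.61 [0.99, 8.98]). In naive 2 of 14 were lower and 0 higher. The proliferation genes Mki67 (22 UMIs, −1.36 [−2.22, −0.51]) and Top2a (19 UMIs, −1.87 [−2.75, −1.04]) were lower than in cDC2-like cells, with 4 of 8 listed genes lower and 0 higher. Against cDC1-like cells 10 of 13 were lower and 0 higher, and in naive 10 of 13 and 8 of 13 against the cDC-like classes, again with 0 higher. Per cell, the median over the cell cycle list was 4 UMIs in BLM members, 4 in cDC2-like and 3 in cDC1-like cells. The list reached 10 or more UMIs in 7 of 73 members, 3 of 39 cDC2-like and 13 of 54 cDC1-like cells. The highest cells held 110, 176 and 145 UMIs. The lower sums therefore do not show that the typical member differed.

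Ranked over all genes, those with the highest interval ends against cDC2-like cells were Mreg, Ccl5, Serpinb9, Sod3, H2-M2, Apol7c, Gnb4 and Mgp. Mreg, or melanoregulin, was found in 62 members (468 CPM, 5.97 [4.1, 9.02] and 6.27 [4.7, 8.56]), and members held 63.3% of its UMIs in the BLM library. H2-M2, a nonclassical class I gene, was found in 33 members (365 CPM) and in no cDC2-like cell (at least 32.5-fold higher). Gnb4, a G protein subunit, was found in 44 members (311 CPM, at least 27.7-fold higher than the 0 UMIs of cDC2-like cells). Mgp and Sod3 are transcripts of stromal cells too: Mgp went from 5.8 to 0.29 without the 5 members, while Sod3, with 109 of its 216 UMIs in the cell with stromal transcripts, remained 4.33 on the log2 scale against the floor. At the other end stood Ms4a4c (0 UMIs against 85), Retnla (29 against 709, −5.52 [−6.11, −4.99]), the creatine kinase Ckb (3 UMIs, −5.85 [−8.15, −4.26]), Qpct, Kmo, Cxcl10, Ccr2 and the adhesion molecule Cdh1, or E-cadherin (1 UMI, −6.4 [−11.74, −3.85]). The ratio of Retnla changed sign when cells with 3 or more UMIs of another lineage were left out.

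Against cDC1-like cells the highest genes were Tmem176a, Arl5c, Fabp5, Ccl22, Anxa3, Apol7c, Sod3 and Mgp. Tmem176a, a membrane protein gene, had 392 UMIs in 63 BLM members and 1 UMI in cDC1-like cells (8.59 [6.1, 13.9]). Arl5c, an ARF-like GTPase gene, was found in 59 members (396 CPM, 7.61 [5.12, 12.92]). Anxa3, a membrane-binding annexin, was found in 72 of 73 (982 CPM, 6.11 [5.06, 7.44] and 4.71 [3.82, 5.78] to cDC2-like cells). The lowest genes were the septin gene Sept3 (1 UMI against 493, −8.97 [−14.28, −6.48]), Ckb (−7.46 [−9.74, −5.9]), Plet1 (38 against 1765 UMIs, −5.56 [−6.07, −5.1]), Gpr171, Naaa, Rab7b (3 against 197, −6.06 [−8.35, −4.49]), Qpct and Tm6sf1. Ckb and Qpct were thus among the lowest genes in both contrasts.

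The comparison of BLM with naive members asks how these cells differed between injured and untreated lung, and it rests on 73 and 15 cells of 1 library each. Of the 8 highest genes, Mgp, Igfbp4, Chil3 and Gsn depended on the cells with transcripts of other lineages: without the 5 members Mgp went from 6.45 to 0.93, Igfbp4 from 4.91 to 1.93, Chil3 from 2.86 to −0.72 and Gsn from 2.87 to −0.84. Ndrg1, a stress-responsive gene, hardly moved without these 5 cells: it had 269 UMIs in 53 BLM members and 2 UMIs in naive members (4.81 [2.94, 7.86], and 4.86 without the 5). Fabp5, Il21r and Pdcd1lg2 completed this end. When every cell with 3 or more UMIs of another lineage was left out, 40 BLM and 3 naive members remained, and the log2 ratios were 1.73 for Ndrg1, 1.35 for Fabp5 and 0.35 for Il21r. Ndrg1 and Il21r had at most 3 UMIs each in all naive members. The naive side of their values was then at most 3 counts, real or set as the floor. For Ndrg1 and Il21r these values thus do not show a smaller difference. The lowest genes included Retnla, Fcrls, Mmp19, Itgb8, Itgam, Sgms1 and Ccr2. Retnla (29 UMIs in BLM, 332 in naive, −5.78 [−6.38, −5.23]) had 232 of the naive UMIs in 1 cell, and Mmp19 (11 against 41) had 35. Itgb8, which activates latent TGF-beta, had 4 UMIs in BLM and 22 in naive members (−4.72 [−6.72, −3.16]), 14 of the latter in 1 cell, and the naive members held 59.5% of its UMIs in their library. With a gate sum of 12 or more, which removed 3 naive members, Mmp19 stood at −0.38. Each of these 7 genes was found in only 3 to 6 of the 15 naive members.

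**Figure D4:**
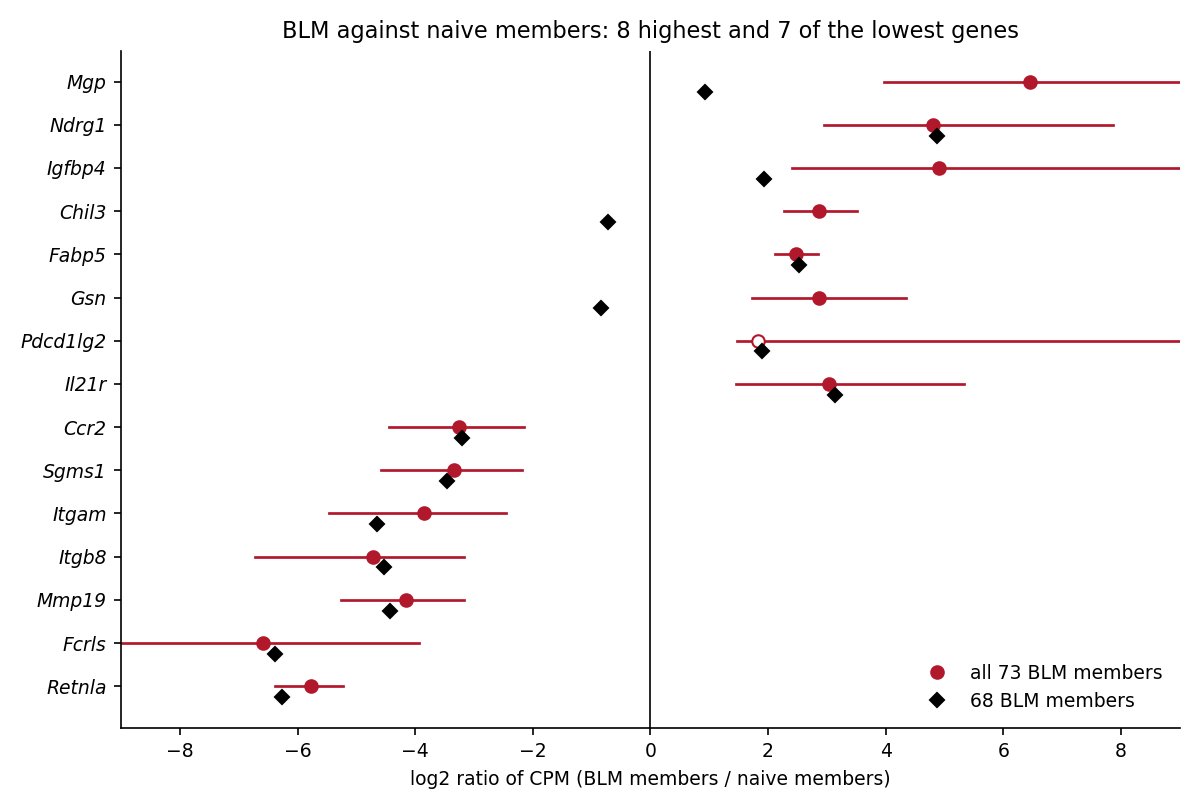
Log2 ratio of CPM of BLM to naive members for the 8 highest genes and 7 of the lowest, as red circles with 95% intervals for all 73 BLM members (open where a floor of 3 counts stood in for 0, and lines at the edge of the plot run on beyond it) and black diamonds for the 68 left without the 5 cells. Ndrg1 and Fabp5 keep their place, while the diamonds of Mgp, Igfbp4, Chil3 and Gsn lie far below their circles.

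The members were not uniform. Ccl22 ranged up to 307 UMIs per BLM member and Ccl5 up to 109, around medians of 7 and 12. Ccl5 reached 10 or more UMIs in 43 BLM members and Ccl22 in 35, both in 17 and neither in 12. Ccl17 and Ccl22 UMIs were found together in 45 members, against 48 with Ccl17 and 58 with Ccl22, and 31 of the 33 members with Il12b also had Ccl22. Across the 73 BLM cells Spearman's rho of the share of UMIs per cell was 0.75 for Ccl22 with Ccl17 and −0.38 for Ccl5 with either of them. The cells share 1 library, and depth moved with these genes, with rho of 0.48 for Ccl22, 0.67 for Ccl17 and −0.36 for Ccl5 with total UMIs, a part that was not tested. In the 15 naive members rho was 0.33 for Ccl22 with Ccl17, 0.26 for Ccl5 with Ccl22 and −0.24 for Ccl5 with Ccl17, and Ccl5 ran against MHC class II (−0.82), while in BLM that value was −0.32.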

How the data were processed

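Living CD45+ lung cells of 1 BLM and 1 naive library (each a pool of 3 mice) were profiled on BD Rhapsody with the whole transcriptome kit. The authors deposited UMI counts, with cells in rows, made by the BD Rhapsody pipeline version 1.8 with GRCm38 and GENCODE vM19 after its error correction of UMIs. The counts are not normalized, and they precede the authors' quality filter in SeqGeq and integration in Seurat, which were not used here. A gene listed in 1 table only (2397 in BLM, 2153 in naive, beside 20235 in both) was given 0 in the other.

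The members, the gates and the gene lists were chosen with earlier results of these data known. Cells passed at a minimum of 200 genes and a maximum of 15% mitochondrial UMIs (4526 of 4714 BLM barcodes with 22126042 UMIs, 3925 of 4062 naive barcodes with 17734002 UMIs). UMIs were summed per class and given as CPM with exact Poisson 95% intervals, shares with Clopper-Pearson intervals, and log2 ratios with exact conditional intervals. With 1 library per group no test was run, since cells are not replicates. Genes with 20 or more UMIs over both sides were compared, without genes used by a gate, and a fold of 2 counted as different. A 0 was set to a floor of 3 counts per class. Detection shares were calculated again for cells thinned to 1000 UMIs. UMIs of 1 cell are not independent of each other, and all intervals and floors cover counting error only.

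Named genes were list genes with the most UMIs beyond a fold of 2 or whose role is described, and the 8 highest and 8 lowest per comparison of BLM members by the interval end nearer 0, with a UMI in at least 10% of cells on the higher side. Doublets were scored with Scrublet in scanpy 1.11.5, whose own threshold marked 8 BLM cells (0.177%) and 61 naive cells (1.55%). All cells were kept, and the highest-scoring 3% were left out as an alternative. The B-like reference cells and the exclusion of 5 BLM members were chosen after the data were seen. Some genes are not reported here. The ratio calculation was tested on simulated data. Promoter windows came from RefSeq (GRCm38.p6) and gene positions from GENCODE vM21 on GRCm38. Python 3.11.15, numpy 2.4.6, scipy 1.17.1 and matplotlib 3.10.9 were used.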

Additional observations from a re-analysis of the deposited data

Results flagged for a closer look

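Some genes were higher in members than in cDC-like cells of 1 library and lower in the other, and these differences between libraries were not tested, since each group has 1 library. Against cDC2-like cells the log2 ratio of Chil3, an abundant product of alveolar macrophages, was 3.41 in BLM and −1.58 in naive. Of its 836 UMIs in BLM members 763 lay in 1 cell. Against cDC1-like cells Chil3 was 2.54 and −1.27. Retnla was −5.52 in BLM and 2.97 in naive against cDC2-like cells, with 232 of its 332 UMIs of naive members in 1 cell. Fcrls (−6.08 and 1.08) and the protease gene Mmp19 (−1.36 and 2.34) had the same order against cDC2-like cells. The BLM value of Retnla changed sign when cells with 3 or more UMIs of another lineage were left out. Itgam was −1.25 in BLM and 2.63 in naive against cDC1-like cells, and the TGF-beta receptor gene Tgfbr1 was 1.44 and −1.0.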

How the results depend on the processing

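Of 177 values that answer a comparison, recomputed under 12 planned settings and 1 added after the data were seen, 137 stayed within their counting interval or within 1.5 times the count and 40 moved. No paired analysis was possible because each group has 1 library. Counts of genes 2-fold apart are given as higher and then lower. With 50 or more UMIs per gene they were 376 and 310 against cDC2-like cells, 494 and 400 against cDC1-like cells and 165 and 115 against naive members, and for naive members 204 and 381, and 254 and 360. With 1 or more UMIs they were 1632 and 1753, 1949 and 2027, 779 and 2661, and for naive members 2740 and 1084, and 2920 and 1084. Fewer or more genes are compared there by construction. With 1 or more UMIs the floor also makes calls by itself. Naive members held 104698 UMIs, against 501969 in BLM members, 543290 in naive cDC2-like and 574671 in naive cDC1-like cells. For a gene with few UMIs, 3 counts in place of a naive 0 can exceed the level of the larger class. Genes without a UMI in naive members can thus count as lower in BLM members or higher in naive members. Those counts do not show a direction. Leaving out every cell with 3 or more UMIs of another lineage kept 40 BLM and 3 naive members among 898 and 632 cells. Members were then 4.45% of BLM cells, and the counts were 500 and 343, 590 and 381, 253 and 248, and for naive members 94 and 173, and 90 and 164. Their share of UMIs was then 73.1% for Ccl22, 34.4% for Ccl17, 34.0% for Ccl5 and 81.7% for Il12b in BLM, and 44.8%, 20.95%, 9.28% and 2.86% in naive. The Ccl17 share in BLM was 23.5% without the highest 3% of Scrublet scores and 23.2% without the 5 members, and the Ccl5 share was 13.2% without the 5. The log2 ratios of single genes changed sign as follows, and the cause was not tested. Leaving out cells of other lineages gave −0.85 for Mgp and 0.41 for Retnla against cDC2-like cells. Between libraries it gave −3.14 for Mgp and Gsn, −1.65 for Igfbp4, −1.21 for Chil3 and −1.76 for Pdcd1lg2, where 3 naive members set the floor. Pdcd1lg2 had no UMI in any naive member. Its −1.76 rests on the 3 counts set in place of that 0 and does not show a reversal. The values of Mgp, Gsn, Igfbp4 and Chil3 under this setting likewise rest on 3 naive members with few or no UMIs of these genes. Their signs do not show a reversal either. Between libraries Mgp was −0.97 with a gate sum of 12 or more, Chil3 −0.65 without the Scrublet scores, and Chil3 −0.72 and Gsn −0.84 without the 5 members. The other named values kept their direction, in 206 of 208 against cDC2-like cells, 208 of 208 against cDC1-like cells and 163 of 172 between libraries.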
